A study of Homo sapiens with 2 samples.

Results

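The ligands of the EGF receptor and of its relative ERBB3 were described in 1 library of Capan-1 cells made resistant to olaparib and 1 library of the parental Capan-1 cells. The 9 genes were listed by name, as ligands of these receptors, out of 31845 genes in the deposited table, and all 9 have a row. They are EGF, TGFA, AREG, EREG, HBEGF, BTC and EPGN, which encode ligands of the EGF receptor, and the neuregulin genes NRG1 and NRG4. The 2 most abundant, EREG and TGFA, were 1.56-fold and 1.89-fold higher in resistant cells, AREG did not differ detectably, HBEGF, EGF, NRG4 and BTC were lower, and EPGN and NRG1 were at or near 0. No ligand was called past 2-fold. Capan-1 is an established pancreatic cancer line that carries mutant BRCA2, although both samples are labelled as breast cancer cells. The resistant line was raised by stepwise exposure to olaparib, an inhibitor of PARP enzymes, from 15 nM to 128 uM, while the parental library serves as the control. The labels do not say whether the resistant line is a single clone or a pool, nor whether olaparib was present when RNA was taken. The heading of the resistant columns is not spelled out in the labels, so every direction rests on the parental columns being the ones that carry the parental line's name.

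Total RNA was made into strand-specific libraries. Counts summed to 34507480 for resistant and 34572931 for parental cells. Each group has 1 library and therefore no replicate error, so the groups could not be tested against each other, and all differences are between these 2 libraries. Ratios are resistant over parental after scaling, and intervals are exact 95% intervals that cover counting error only. Calls required 50 counts or more in 1 of the libraries and a log2 ratio of at least 1 in size, which is 2-fold. The epithelial genes EPCAM and KRT19 were abundant in both libraries, at 603 and 932 FPKM in resistant cells and 323 and 704 FPKM in parental cells (FPKM is the deposited level per length and library size). Of the 10 pancreatic carcinoma and epithelial markers listed, all reached 50 counts, none was called higher and 3 were called lower, MUC1 at a log2 ratio of -1.34, CEACAM5 at -2.06 and CEACAM6 at -2.01. Over all genes at that minimum, 6% were called higher and 8.95% lower. The median of the 10 was 0.34 and their mean -0.27, which differ in sign. Of the other cell types checked, 6 of the 9 fibroblast markers in the table, 7 of the 9 leukocyte markers and 3 of the 4 endothelial markers were below 50 counts in both libraries. Of the rest, the fibroblast marker LUM was called higher at a log2 ratio of 3.87, with 523 resistant and 35 parental counts. COL1A1, LYZ and ESAM were called lower at -1.32, -4.28 and -1.58. ACTA2 and CD68, at 0.996 and 0.74, were not called. Summed over each list, fibroblast markers stood at 3.83 FPKM in resistant cells and 0.833 in parental cells, leukocyte markers at 36.8 and 618, of which LYZ made up 32.7 and 615, and endothelial markers at 0.860 and 2.39. CD14 and KDR were at 0 in resistant cells, with only 7 and 3 parental counts. COL3A1, DCN, FAP, CD79A, VWF and TEK were at 0 in parental cells, with only 8, 5, 3, 1, 3 and 7 resistant counts. The part of these markers in any ligand difference was not tested, and in bulk RNA fewer cells of a kind and less RNA per cell cannot be told apart.

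ErbB ligands are made as membrane-bound precursors with an EGF-like domain, and proteases of the ADAM family release the active growth factor. EGF, TGF-alpha, amphiregulin and epigen bind the EGF receptor, whereas HB-EGF, betacellulin and epiregulin also bind ERBB4. Neuregulin 1 binds ERBB3 and ERBB4. Neuregulin 4 is known as a ligand of ERBB4, so its place among ERBB3 ligands follows the list and not its main receptor. Binding joins receptors into pairs that signal through RAS and PI3 kinase, and ERBB2, which has no ligand of its own, is the usual partner of ERBB3. In pancreatic tumours, EGF receptor ligands made by the tumour cells are known to keep the receptor active.

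EPGN, EREG, AREG and BTC stand next to each other on chromosome 4, with no other protein-coding gene starting between them in GENCODE release 29. Their upstream sequences are shown because these 4 neighbours carried some of the highest and some of the lowest ligand counts. Each is the 250 bases before the start of the gene, read 5′ to 3′ on the gene's own strand, from RefSeq on GRCh38.p14, which is not the build named for the deposited files. Capitals mark the TATA box (TATAAA) and the cAMP response element (TGACGTCA), both searched on both strands.

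EPGN, chr4:74308220-74308469, + strand: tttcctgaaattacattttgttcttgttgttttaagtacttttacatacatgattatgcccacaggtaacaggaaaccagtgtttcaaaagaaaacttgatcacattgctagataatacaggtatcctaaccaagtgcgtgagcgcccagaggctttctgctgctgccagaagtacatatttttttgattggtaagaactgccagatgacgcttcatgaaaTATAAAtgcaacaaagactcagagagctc

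EREG, chr4:74364895-74365144, + strand: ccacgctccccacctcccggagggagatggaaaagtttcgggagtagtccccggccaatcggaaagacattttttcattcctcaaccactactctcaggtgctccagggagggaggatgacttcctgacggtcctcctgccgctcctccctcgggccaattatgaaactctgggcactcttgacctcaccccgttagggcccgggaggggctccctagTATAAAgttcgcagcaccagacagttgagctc

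AREG, chr4:74444886-74445135, + strand: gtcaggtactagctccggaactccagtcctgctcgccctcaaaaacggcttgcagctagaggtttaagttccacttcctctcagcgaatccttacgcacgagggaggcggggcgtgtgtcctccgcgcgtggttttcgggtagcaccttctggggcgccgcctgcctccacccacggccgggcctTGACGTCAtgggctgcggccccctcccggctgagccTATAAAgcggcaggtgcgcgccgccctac

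BTC, chr4:74794524-74794773, - strand: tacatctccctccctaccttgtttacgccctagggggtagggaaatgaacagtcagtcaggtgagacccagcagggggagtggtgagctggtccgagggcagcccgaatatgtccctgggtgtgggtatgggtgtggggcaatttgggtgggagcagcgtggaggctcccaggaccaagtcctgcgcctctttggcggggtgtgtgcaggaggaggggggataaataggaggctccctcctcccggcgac

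The EPGN, EREG and AREG sequences each hold 1 TATA box, which starts 29, 32 and 29 bases before the start of the gene. That of BTC holds none. Elsewhere among the 8 ligand genes searched (all but NRG1), only NRG4 holds one, 8 bases before its start. TATAAA occurs in 11.2% of the same windows of 27305 RefSeq genes. AREG alone of the 8 also holds a TGACGTCA, which occurs in 1.75% of windows. The upstream windows of TGFA and HBEGF, without a TATA box, are 75.6% and 76.4% G or C, against a median of 58% over all windows. The AP-1 site (TGANTCA), to which FOS and FOSL1 proteins bind, occurs in the window of EGF only among the 8, and in 6.57% of all windows. The EGR1 site (GCGTGGGCG) occurs in none of the 8 and in 0.714% of all windows. The CArG box, the ETS site (CCGGAAGT), the NF-kB site and the E-box (CACGTG) also occur in none of the 8, while the GC box (GGGCGG) and the TEAD site (GGAATG) each occur in 3, against 42.2% and 12.0% of all windows. All were searched on both strands, and matches overlapped between the AP-1 and TEAD sites of EGF and between a pair of GC boxes of HBEGF. These matches describe the letters of the windows and do not show that a factor binds there.

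Transcripts of EREG, which encodes epiregulin, were the most frequent of the 9 in both libraries. EREG had 12424 counts in resistant cells and 8040 in parental cells. The level was 1.56-fold higher in resistant cells (interval 1.51 to 1.60), a log2 ratio of 0.64. In deposited FPKM, EREG stood at 31.6 in resistant cells and 19.6 in parental cells. Those values exceeded the FPKM of 92.8% of the genes detected in resistant cells and of 89.9% of those detected in parental cells.

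TGFA encodes TGF-alpha, a ligand of the EGF receptor alone. Of the ligands that were higher it differed most, but not once a trend with length was removed (below). It had 2796 counts in resistant cells and 1493 in parental cells, with 26.8 and 13.7 FPKM. Its level was 1.89-fold higher in resistant cells (interval 1.77 to 2.01), a log2 ratio of 0.91 that exceeded those of 92.9% of the 15102 genes at the count minimum. The interval reaches just past 2-fold while the value itself is below it.

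AREG, which encodes amphiregulin, was the third ligand by FPKM in both libraries, at 9.75 in resistant cells and 8.60 in parental cells. It had 633 counts in resistant cells and 582 in parental cells. The interval of its ratio of 1.09 included equal levels (0.977 to 1.23), so no difference in AREG was detectable at this depth. The build named for the files carries a near-identical second copy of AREG, AREGB, a name that RefSeq now lists under AREG. Reads may have been divided between the copies, only the AREG row was analysed here, and both its level and its ratio are uncertain.

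HBEGF, which encodes heparin-binding EGF-like growth factor, had the lowest ratio of the measured ligands. It had 272 counts in resistant cells and 548 in parental cells, with 1.34 and 2.59 FPKM. Its ratio was 0.50 (interval 0.430 to 0.579) and its log2 ratio, with 1 count added to each scaled count, was -0.998, which lies beside the 2-fold line and just inside it. Scaling by total counts or by the median of ratios put it just past that line, at -1.01 with each. EGF, which names the family and its receptor, had 320 counts in resistant cells and 611 in parental cells, with 0.771 and 1.41 FPKM. Its ratio was 0.527 (interval 0.459 to 0.605), a log2 ratio of -0.92.

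BTC, which encodes betacellulin, had 191 counts in resistant cells and 287 in parental cells, with 3.60 and 5.18 FPKM. Its ratio was 0.670 (interval 0.555 to 0.807). BTC was thus lower in resistant cells while EREG, of the same cluster, was higher.

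Of the neuregulins listed, NRG4 had 388 counts in resistant cells and 602 in parental cells, with 1.34 and 1.99 FPKM. Its ratio was 0.649 (interval 0.570 to 0.738). NRG4 overlaps FBXO22 on the opposite strand, a gene with 1711 resistant and 1118 parental counts. FBXO22 differed in the other direction, and whether counting used strand is not given in the sources used here. NRG1 had 0 counts in resistant cells, which allows up to 3 counts, and 1 in parental cells. EPGN, which encodes epigen, had 2 counts in resistant cells and 0 in parental cells. Both genes were at or below the floor of 3 counts in each library, so no ratio is given.

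**Figure D1:**
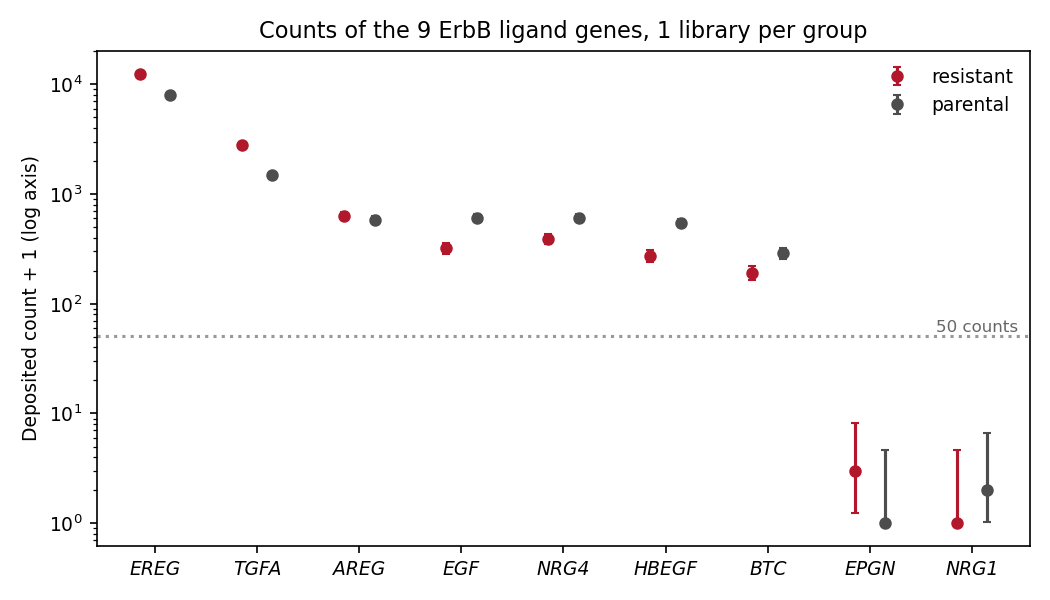
Deposited counts of the 9 ligand genes plus 1, on a log axis, with resistant (red) left of parental (grey); points are single libraries and bars are exact 95% counting intervals. EREG and TGFA have the most counts and are higher in resistant cells, EGF, NRG4, HBEGF and BTC are lower there, and EPGN and NRG1 lie at 2 counts or fewer.

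Of the 9 ligands, 7 reached the count minimum and 2 did not. None of the 7 was called higher and none lower, beside 6% and 8.95% of the 15102 genes at the minimum. With only 7 genes, the lack of calls does not set the ligands apart from those shares. By the interval, 2 ligands were higher, TGFA and EREG, and 4 lower, HBEGF, EGF, NRG4 and BTC. At this depth the interval lay above equal levels for 43.7% of all genes and below them for 41.2%, so that count says little about the ligands. Their log2 ratios spread from -0.998 to 0.91 with a median of -0.58 and a mean of -0.21, against a median of 0.06 and quartiles of -0.50 and 0.44 over all genes at the minimum. With the trend of ratios with gene length removed, the log2 ratio of EREG was 0.95 and that of TGFA 0.90. EGF was then at -0.58 and NRG4 at -0.38, which was the median of the 7. Length for that trend, here and below, was each gene's count over FPKM and not its exonic length. At a 1.5-fold size in place of 2-fold, TGFA and EREG were higher and HBEGF, EGF and NRG4 lower.

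**Figure D2:**
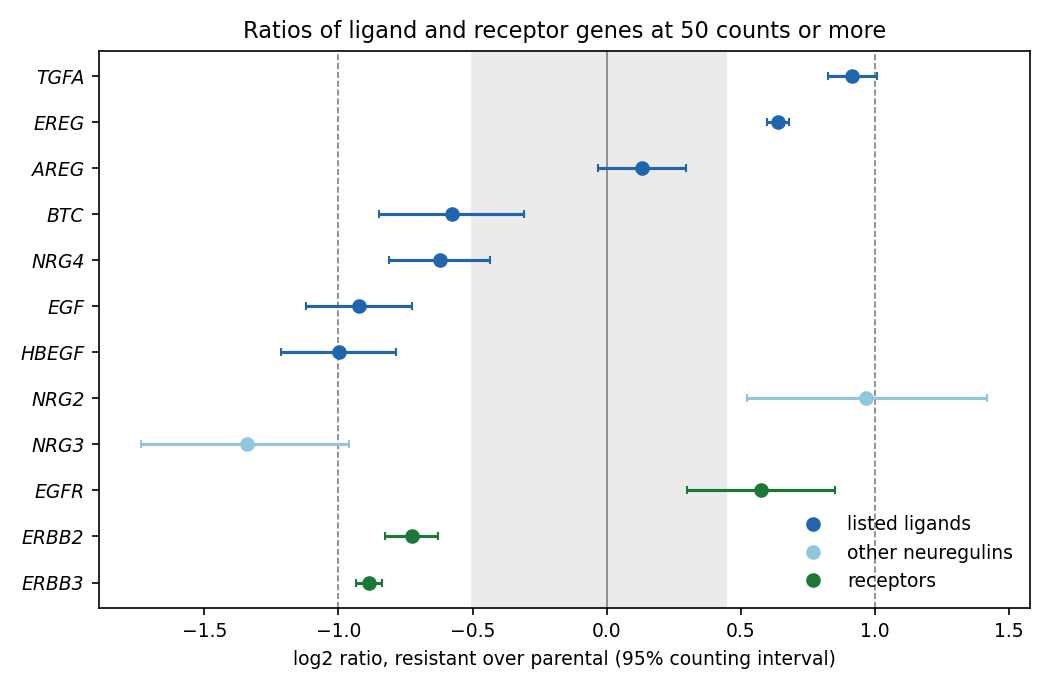
Log2 ratios of resistant over parental, with 95% counting intervals, for the ligands at 50 counts or more (dark blue), the other neuregulins (light blue) and the receptors (green). The grey band spans the quartiles of all genes, -0.50 to 0.44, and dashed lines mark 2-fold; AREG lies inside the band and every other gene shown lies outside it.

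The make-up of the ligand transcripts differed accordingly. Levels between genes can be compared only per length, here in deposited FPKM. In both libraries the order was EREG, TGFA, AREG, BTC, HBEGF, NRG4 and EGF. HBEGF and NRG4 stood at 1.34 FPKM each in resistant cells, with overlapping counting intervals, and are not ordered there. The 9 ligands summed to 75.3 FPKM in resistant cells and 53.1 FPKM in parental cells, a sum 41.7% higher. EREG made up 42.0% of the resistant sum and 36.9% of the parental sum. TGFA made up 35.6% of the resistant sum and 25.9% of the parental sum. AREG, without a detectable difference in its own level, made up 13.0% of the resistant sum and 16.2% of the parental sum. The other 4 measured ligands were each below 10% in both libraries, and the share of BTC was 4.78% in resistant cells and 9.76% in parental cells. TGFA stood 20.0 times above HBEGF in FPKM in resistant cells and 5.31 times in parental cells, but 6.25 and 1.66 times in scaled counts per exonic kilobase.

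The length behind the FPKM values bears on these shares. The length implied by count over FPKM, set against GENCODE exonic length and divided by the median of that ratio over 14551 genes, was 0.581 for TGFA and 0.544 for BTC. It was 1.09 for AREG and 1.90 to 1.95 for EREG, HBEGF and EGF. The quartiles over all those genes were 0.364 and 2.06. On this scale 1 is the median ratio and does not mean the full exonic length. With scaled counts per exonic kilobase, the sum of the 9 ligands was 33.9% higher in resistant cells. EREG then made up 63.7% of the resistant sum and 54.9% of the parental sum, and TGFA 16.5% and 11.7%. In that measure EREG was still first in both libraries, and AREG stood above TGFA in parental cells but below it in resistant cells. BTC made up 1.99% of the resistant sum and 3.98% of the parental sum in that measure and stood below HBEGF and NRG4 in both libraries. A gene's own length cancels in its ratio between the libraries.

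**Figure D3:**
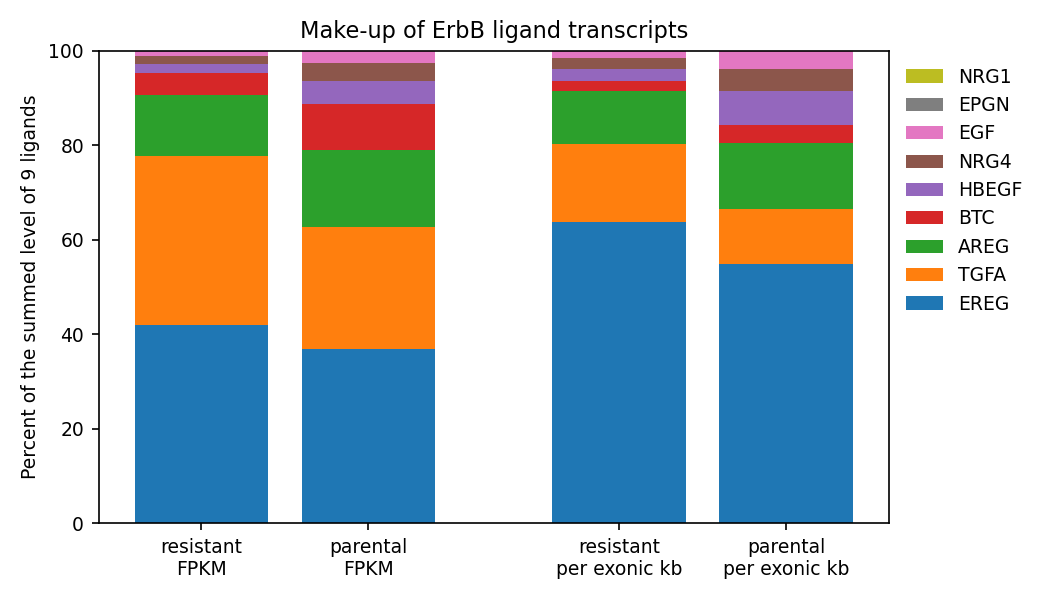
Percent of the summed level of the 9 ligands taken by each gene, in deposited FPKM (left pair) and in scaled counts per exonic kilobase (right pair), with resistant left of parental in each pair. EREG takes 42.0% and 36.9% by FPKM but 63.7% and 54.9% by exonic length, and HBEGF, BTC, EGF and NRG4 take smaller shares in resistant cells by either measure.

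The ligands were next set beside their neighbours in gene order, to see whether genes at the same place in the genome had like ratios. The 3 nearest measured coding genes on each side of TGFA had log2 ratios from -0.22 to 0.75 with a median of 0.27, and all 6 lay below TGFA. Around HBEGF the 6 neighbours ranged from -0.93 (CYSTM1) to 0.24, with a median of -0.25, and all 6 lay above HBEGF. Among them ANKHD1, at -0.56, and ANKHD1-EIF4EBP3, at -0.54, are by name parts of 1 locus and may share reads. Around EGF the median was 0.19, and CFI, which encodes complement factor I, was called lower at -1.65. Around NRG4 the median was 0.20, and CSPG4 was called lower at -1.40 with 28 resistant and 76 parental counts. In the chromosome 4 cluster the flanking genes also differed in both directions, with MTHFD2L, a mitochondrial folate enzyme, at 0.89 and the chemokine gene CXCL2 at -0.80. All 6 neighbours of BTC, which include EREG and AREG, had log2 ratios above 0, and BTC lay below each of them. The neighbours of NRG1 ranged from -0.64 to 0.81, and none was called.

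**Figure D4:**
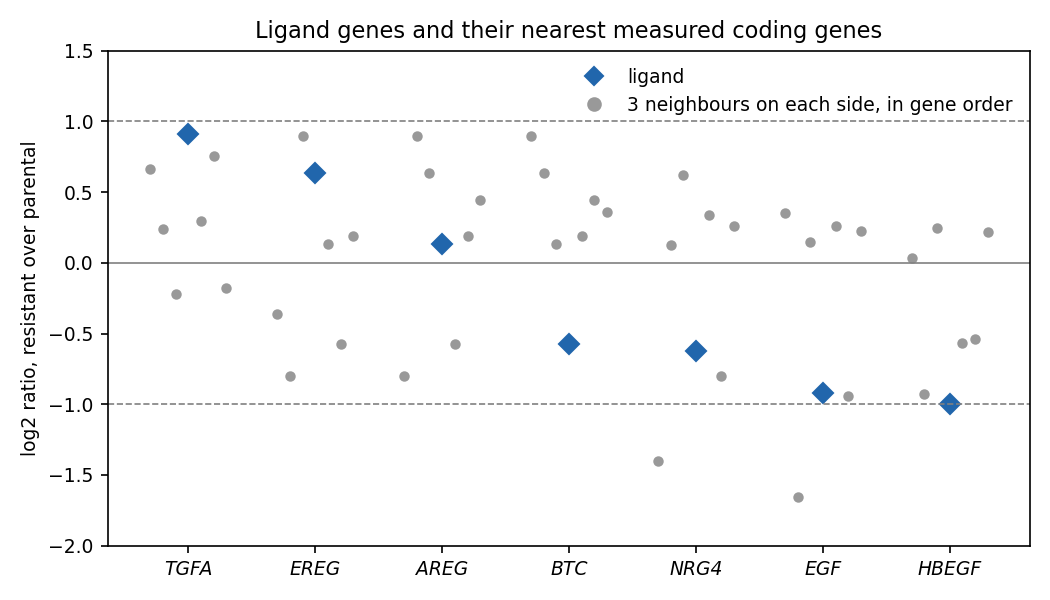
Log2 ratio of resistant over parental for each measured ligand (blue diamonds) and for the 3 nearest measured coding genes on each side in gene order (grey dots, placed left and right by order). Dashed lines mark 2-fold; TGFA lies above its 6 neighbours and HBEGF and BTC lie below theirs, while EREG, AREG, NRG4 and EGF lie within the range of their neighbours.

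The receptors also differed in both directions. ERBB3, the neuregulin receptor that signals through PI3 kinase, had 5253 counts in resistant cells and 9776 in parental cells. Its ratio was 0.541 (interval 0.523 to 0.559), a log2 ratio of -0.89, or -0.57 with the trend with gene length removed. ERBB2 had 1351 counts in resistant cells and 2251 in parental cells, with a ratio of 0.604 (interval 0.564 to 0.647). EGFR had 271 counts in resistant cells and 183 in parental cells, with a ratio of 1.49 (interval 1.23 to 1.81). ERBB4, the receptor of neuregulin 4, had 2 and 5 counts, too few to compare. None of the 3 measured receptors was past 2-fold, and their median log2 ratio was -0.73 and their mean -0.35.

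Levels of the receptors are uncertain. In FPKM, EGFR stood at 4.61 in resistant cells and 2.98 in parental cells, and ERBB3 at 14.1 and 25.1. The length implied for EGFR was 0.130 on the scale above, so its FPKM is high for its counts. ERBB3 overlaps AC034102.2, a coding gene of GENCODE, on the same strand, with 6956 resistant and 7861 parental counts, and ERBB2 overlaps MIEN1 and PGAP3 on the opposite strand. Reads may have been divided between them, so the ratios of ERBB3 and ERBB2 are uncertain as well. Beyond the list, NRG2, which encodes a ligand of ERBB3 and ERBB4, had 127 counts in resistant cells and 65 in parental cells, a ratio of 1.97 (interval 1.45 to 2.69). NRG3, which encodes a ligand of ERBB4, had 79 counts in resistant cells and 203 in parental cells, and was called lower at a ratio of 0.392 (interval 0.298 to 0.510).

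Genes that release or carry the ligands went both ways, with 1 called higher and 1 lower of the 14 at the minimum, counts near the 6% and 8.95% of all genes. Their median log2 ratio was -0.38, or -0.17 with the trend with gene length removed, and close to 0 with no count minimum. ADAM17, the main protease for TGF-alpha, amphiregulin, epiregulin and HB-EGF, had 2917 counts in resistant cells and 4708 in parental cells, a log2 ratio of -0.68, or -0.37 with that trend removed. ADAM10, which releases EGF and betacellulin, was at -0.65. RHBDF1 and RHBDF2, rhomboid-like proteins that escort ADAM17 to the cell surface, diverged at 0.68 and -0.99. TMED2, a cargo carrier of the early secretory pathway, was called higher at 1.11, and RHBDL2, a rhomboid protease able to cleave EGF, was called lower at -1.06.

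Among 20 measured genes that restrain ErbB receptors or carry them to degradation, none was called higher and 2 were called lower, beside 6% and 8.95% of all genes, and the count lower is near that share. The median was -0.22, or -0.08 with that trend removed. CBLB, a ubiquitin ligase acting on activated receptors, had 213 counts in resistant cells and 759 in parental cells, a log2 ratio of -1.82. LRIG1, a membrane protein that promotes ErbB degradation, had 599 counts in resistant cells and 1573 in parental cells, a log2 ratio of -1.38. ERRFI1, an inhibitor of the EGF receptor kinase that is itself induced by EGF, was at 0.54. RNF41, a ubiquitin ligase for ERBB3, had 419 counts in resistant cells and 844 in parental cells, just inside the 2-fold line.

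Adaptors and first effectors had a median of -0.31 over 23 genes. None was called higher and RASA1, which switches RAS off, was called lower at -1.22, beside 6% and 8.95% of all genes. Immediate early and ERK feedback genes had a median of -0.03 over 20 genes, which turned positive with upper quartile scaling, FPKM or the length trend removed. Of these, 1 was called higher and 2 lower, counts near the 6% and 8.95% of all genes. FOS had 364 counts in resistant cells and 2687 in parental cells, a log2 ratio of -2.87, and EGR1 was at -1.73. FOSL1, a FOS relative that follows sustained ERK signalling, was called higher at 1.30, with 195 resistant and 79 parental counts. DUSP6, an ERK phosphatase, was at -0.68 and DUSP5, another, at 0.57. Of the genes for HB-EGF partners on the cell surface and for heparan sulfate synthesis, 11 reached the minimum. EXT1, an enzyme of heparan sulfate chain growth, was called higher at 1.30 and none was called lower, beside 6% and 8.95% of all genes. The median of the 11 was -0.22.

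Ligands of other growth factor receptors gave a comparison for spread. Of 38 listed, 21 reached the minimum, with 3 called higher and 6 lower, beside 6% and 8.95% of all genes. Their median was -0.23, or -0.55 at a minimum of 10 counts. KITLG, the KIT ligand, had 11141 counts in resistant cells and 37879 in parental cells, a log2 ratio of -1.76. PDGFB was at 3.39 with 51 resistant and 4 parental counts, GAS6, a ligand of AXL, at 1.82 and FGF9 at -2.17. FGF18 was at -1.99 with 39 resistant and 159 parental counts, and MST1, the ligand of MST1R, at -1.95 with 42 and 166. The measured ErbB ligands thus covered -0.998 to 0.91 where these covered -2.17 to 3.39, a difference in range that was not tested.

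**Figure D5:**
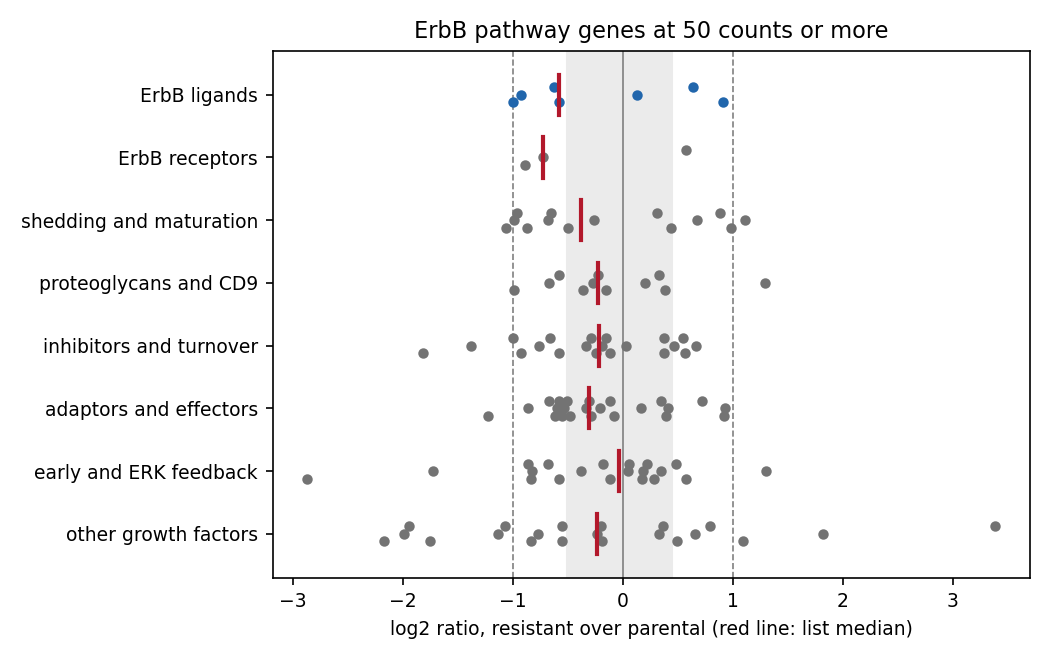
Log2 ratio of resistant over parental for every gene at 50 counts or more in 8 lists, 1 dot per gene, with a red line at each list's median. Dots are spread vertically only to keep them apart, the grey band spans the quartiles of all genes and dashed lines mark 2-fold; every list holds genes on both sides of 0.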

How the data were processed

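Counts and FPKM values per Ensembl gene were deposited by the authors in 1 table, per the file headers. The counts are whole numbers without normalization, and the authors' FPKM used a single length for each gene, as the values show. RSEM 1.2.3 and hg19 are named, without a role, per the submitters' processing notes. Which annotation and strand setting were used is not given in the sources used here. Symbols came from a gene name table and GENCODE release 29, which describes another build and served for names, gene order, overlaps and exonic length only. Of 31845 identifiers, 29719 were named, and a name without a row was not analysed here.

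Scaling used edgeR's TMM factors over the whole table (edgeR 4.0.16, R 4.3.3), and 1 count was added to each scaled count before log2 ratios. Python 3.11.15, numpy 2.4.6, pandas 2.3.3, scipy 1.17.1, statsmodels 0.14.6 and matplotlib 3.10.9 did the rest. Each ratio has an exact 95% interval conditional on the summed counts (Clopper-Pearson), and each count an exact Poisson interval. The ratios and calls were tested on simulated counts with Poisson error only, scaled by library totals. That test did not cover TMM scaling or other error. The members, lists and alternatives were chosen with earlier results of these data known. Named genes were all ligands and receptors, list members past 2-fold (up to 4 a list, or the 2 largest), and the 3 nearest coding genes on each side. Fibroblast, leukocyte and endothelial markers at 50 counts or more, or at 0 in 1 library, were also named. ADAM17, ADAM10, RHBDF1, RHBDF2, ERRFI1, RNF41, DUSP5, DUSP6, KITLG, GAS6, EPCAM and KRT19 were chosen after their values were seen.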

Additional observations from a re-analysis of the deposited data

How the results depend on the processing

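With 1 library per group nothing could be left out. No paired analysis was possible because each group has 1 library and no test was run. Alternatives covered other scalings, prior counts, count minimums and fold sizes, and a required counting interval. They also covered the deposited FPKM ratios and removal of the trend with gene length, taken as count over FPKM (span 0.3). Scaling per exonic length was added after seeing the data. No log2 ratio of a ligand changed sign. That of EREG went from 0.64 to 0.71 with upper quartile scaling, 0.69 with FPKM and 0.95 with the length trend removed. The length trend also took EGF to -0.58 and NRG4 to -0.38. The other ligand ratios stayed within their counting intervals. No ligand was called, except that 1 (HBEGF) was lower with median of ratios or total count scaling, and 1 (EPGN, at 2 counts) was higher with no minimum. At 1.5-fold 2 were higher and 3 lower. Genes called higher and lower numbered 1975 and 2821 at a minimum of 10 counts, 474 and 741 at 200, 5565 and 5887 with none, 2541 and 3209 at 1.5-fold and 252 and 250 at 4-fold, which follows from the settings. The share of EREG was 73.0% of resistant and 66.1% of parental ligand counts without length, and 63.7% and 54.9% per exonic length. That of TGFA was 16.4% and 12.3% without length, and 16.5% and 11.7% per exonic length. The median of early and ERK feedback genes turned to 0.040 with upper quartile scaling, 0.019 with FPKM and 0.12 with the length trend removed. Medians of the shedding and inhibitor lists moved to -0.17 and -0.08 with that trend removed, and that of shedding to -0.0025 with no count minimum. The median of other growth factor ligands moved to -0.55 at a minimum of 10 counts and -0.41 with none. ERBB3 moved to -0.82 with upper quartile scaling, -0.84 with FPKM and -0.57 with the length trend removed. The cause was not tested. Over all genes, the median shifted by at most 0.07 under any alternative. Depth left AREG, EPGN, NRG1 and ERBB4 without a detectable difference.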
